A study of Homo sapiens with 12 samples.

Results

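The interferon response and RNA sensor genes are 46 named genes of the 55765 in the gene count table, taken by symbol, and all 46 were found there. By role, 9 are sensors and signal genes (IFIH1, DDX58, DHX58, IFI16, EIF2AK2, STAT2, IRF1, IRF7 and IRF9), and the other 37 are induced effectors. They were measured by RNA-seq in HEK293T, a cell line of human embryonic kidney that expresses the large T antigen of SV40. The cells were treated with siRNA against ERI2, an exonuclease of the ERI family (3 libraries), or with a control siRNA (3 libraries). In both groups the siRNA was used at 50 nM, with a further transfection after 48 hours and harvest 72 hours after that. The growth protocol names HEK293 in place of HEK293T. A single ERI2 siRNA treatment with no rescue was used here, so other effects of the siRNA and loss of ERI2 cannot be told apart. The labels do not say that replicates were separate cultures, and if they were not, the p-values cover technical spread alone.

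Cells detect foreign RNA with the RIG-I-like helicases, which signal through MAVS and IRF3 or IRF7 to switch on interferon genes. Secreted interferon then acts through its receptors and JAK kinases on a complex that includes STAT2 and IRF9, which binds interferon-stimulated response elements and induces many antiviral effectors. Most sensors are themselves induced in this way. HEK293 lines are known for weak DNA sensing and a low resting level of many effectors.

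The libraries held from 29143596 to 32646277 counts after ERI2 siRNA and from 30099367 to 38306631 after control siRNA. The 46 genes took from 0.0531% to 0.0542% of the counts after ERI2 siRNA and from 0.0579% to 0.0615% after control siRNA. These shares weigh abundant genes most. B2M, EIF2AK2 and STAT2 alone had 28182, 23181 and 15489 counts over the 6 libraries, and of these only EIF2AK2 passed the test below. ERI2 mRNA, the siRNA target, measured 34.6, 35.8 and 32.5 CPM (counts per 1e+06 counts, with TMM-scaled library sizes) after ERI2 siRNA, against 54.4, 58.2 and 54.4 CPM after control siRNA, so 61.5% of the control level was left (log2 fold change -0.70; Benjamini-Hochberg adjusted p = 0.000683 by edgeR's quasi-likelihood test). Both replicate 1 libraries stood apart. On the first principal component, which held 45.2% of the variance, the ERI2 siRNA libraries lay at -8.45, -25.7 and -36.4 in the order of their numbers, and the control siRNA libraries at 6.29, 31.8 and 32.4. Results are therefore also given for replicates 2 and 3 alone. This component also separates the groups, with both replicate 1 libraries nearest its middle. Leaving out 1 or both of them can widen the gap between groups. Adjusted p-values from such fits can therefore be too small and are no independent support. In bulk RNA, fewer cells of a kind and less RNA per cell cannot be told apart.

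Many of these genes were too low to judge. Of the 46, 14 did not reach the count filter and were not tested: the DNA sensor IFI16 and the effectors MX1, MX2, OAS1, OAS2, OASL, IFI44, RSAD2, XAF1, PARP14, SAMD9L, SP100, PSMB8 and PSMB9. Their counts, summed over 6 libraries, had a median of 12, and no library gave any of them more than 16. PARP14 had no count in any library. A count of 0 allows up to 3 counts, which is at most 0.0989 CPM in an ERI2 siRNA library and at most 0.104 CPM in a control siRNA library, counting error only. MX1, a GTPase that blocks viral replication, had 6, 5 and 11 counts after ERI2 siRNA, against 6, 4 and 11 after control siRNA. PSMB9, an immunoproteasome subunit and the best supported of the 14, had 4, 6 and 4 counts against 16, 5 and 11, with overlapping groups. The other 32 genes were tested, with totals from 122 counts (IFIT2) to 28182 (B2M), and 27 of the 46 averaged at least 1 CPM. None of the 32 had a 95% interval reaching more than 1 log2 unit to either side of its estimate, the limit set for a judgement.

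**Figure D1:**
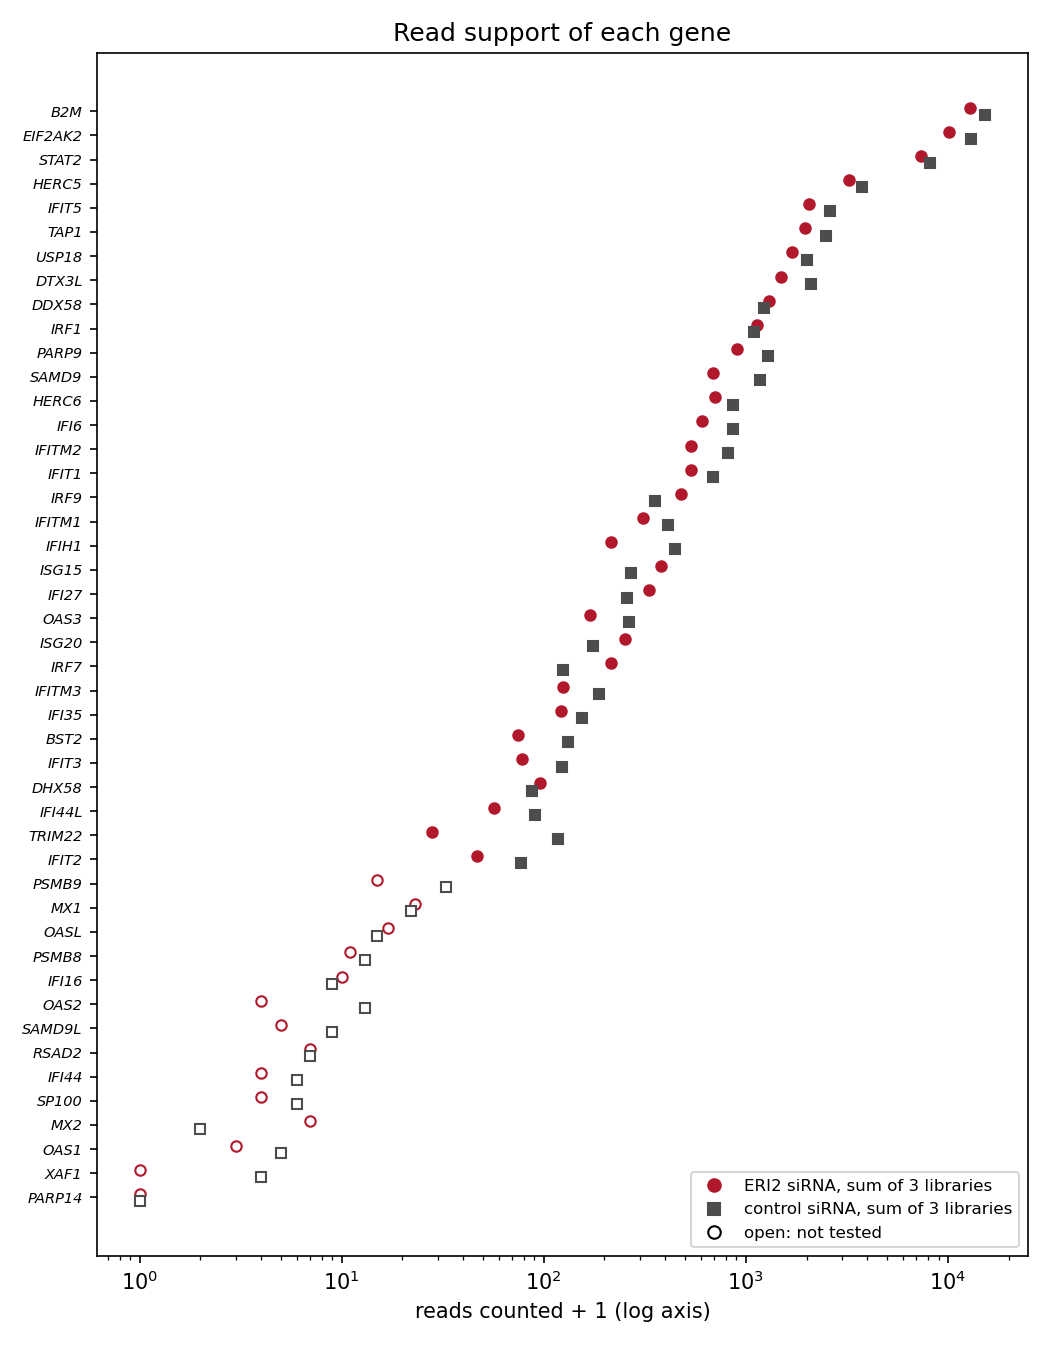
Reads counted for each of the 46 genes, summed over the 3 ERI2 siRNA libraries (red circles) and the 3 control siRNA libraries (grey squares), plus 1, on a log axis. Open symbols mark the 14 genes that were not tested, all with totals of 46 counts or fewer.

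Of the 32 tested genes, 6 were lower after ERI2 siRNA and none was higher, where 4.25% of all 18843 tested genes were lower and 4.29% higher. The 6 are 18.8% of the 32. They were the sensors IFIH1 and EIF2AK2 (2 of 8 tested sensors and signal genes) and the effectors TRIM22, SAMD9, PARP9 and DTX3L (4 of 24 tested effectors). With 4.29% of all tested genes higher, few rises were due among 32, so their absence does not set these genes apart. In edgeR at an unadjusted p under 0.05, 5 were higher (15.6%) and 14 lower (43.8%), where 13.4% and 13.1% of all tested genes were. DESeq2 gave 0 higher and 8 lower (5.48% and 5.45% of all genes), and limma-voom gave 0 higher and 6 lower (4.18% and 3.99%). Other settings gave rises: IRF7 with no filter, IRF7 and ISG15 without ERI2 siRNA replicate 1, and ISG20 without control siRNA replicate 1. With both replicate 1 libraries left out, IRF9, ISG15 and ISG20 passed as higher. The median log2 fold change of the 32 was -0.28, against 0.003 for all tested genes. It was 0.14 for the sensors and signal genes and -0.38 for the effectors, and for those averaging at least 1 CPM it was 0.11 (7 genes) and -0.28 (20 genes). The filter keeps a gene that is high in one group alone, so these counts and medians describe the genes that passed it and not all 46. The 95% interval lay below a 2-fold rise for 29 of the 32 (90.6%; the exceptions were IRF7, ISG15 and ISG20), close to the 85.3% of all tested genes.

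The number of lower genes depended on single libraries. Without ERI2 siRNA replicate 1 it was 12, with 2 higher, where 6.81% of all genes were lower and 7.31% higher. It was 3, with none higher, without ERI2 siRNA replicate 2 (1.11% of all genes lower, 1.18% higher), ERI2 siRNA replicate 3 (1.01% and 0.913%) or control siRNA replicate 3 (1.09% and 1.38%). With replicates 2 and 3 alone, 13 of 33 tested were lower and 3 higher, where 14.1% and 13.9% of all genes were. The 3 higher were IRF9, ISG15 and ISG20. IFIH1, SAMD9 and TRIM22 were lower in the main test and in each of its 14 alternatives, while EIF2AK2, PARP9 and DTX3L were not.

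**Figure D2:**
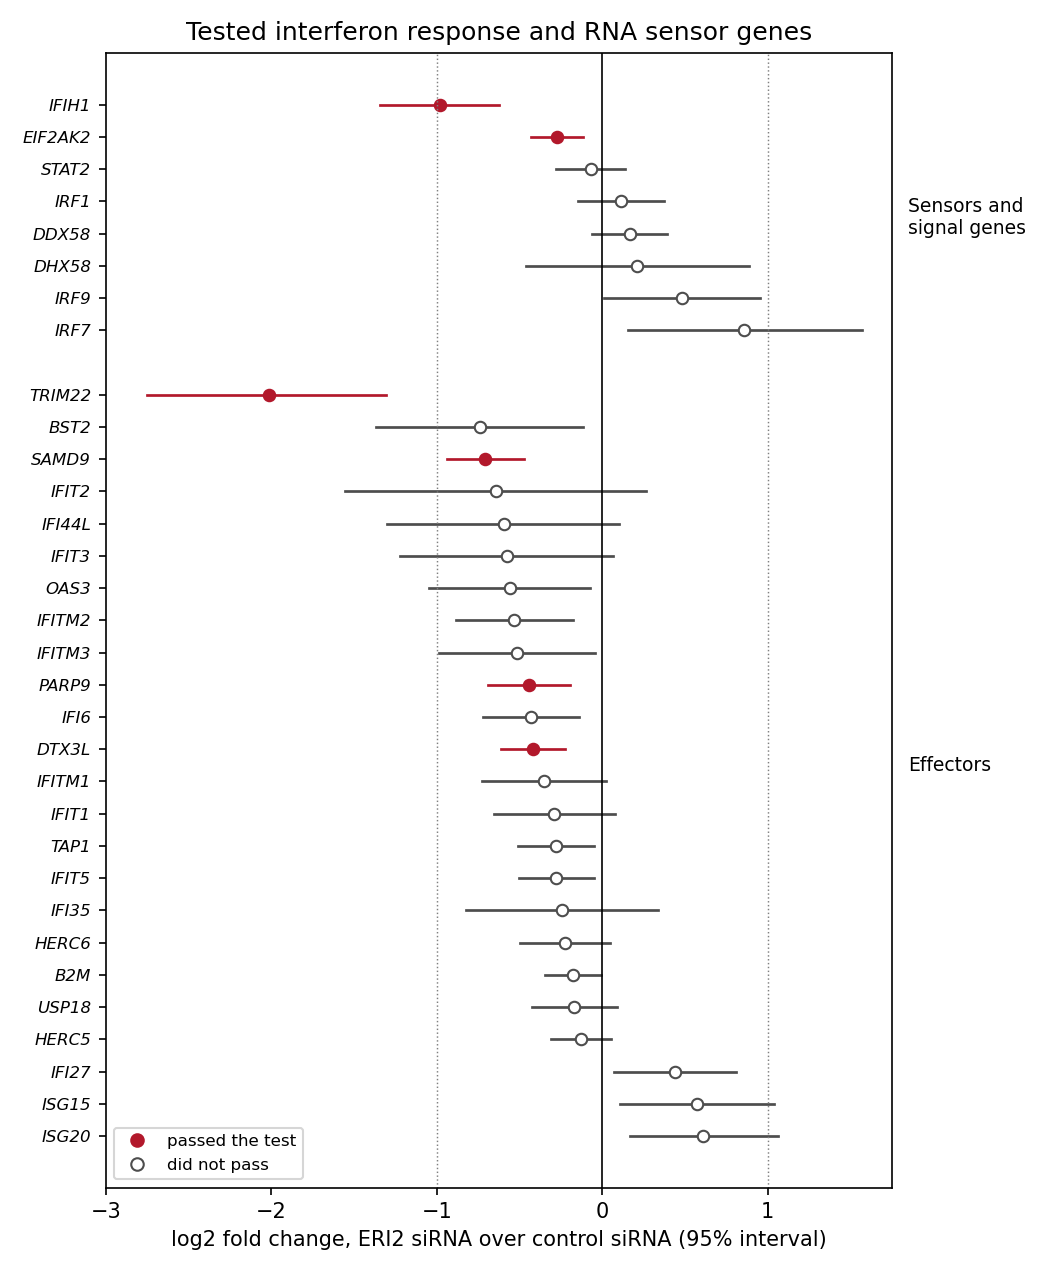
Log2 fold change of the 32 tested genes (points) with 95% intervals (lines), ERI2 siRNA over control siRNA, sensors and signal genes above effectors. Filled red points passed the test. The 6 filled points all lie below 0, and dotted lines mark a 2-fold change.

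Among the sensors, IFIH1, which encodes the helicase MDA5 that binds long double-stranded RNA, measured 2.34, 2.11 and 2.28 CPM after ERI2 siRNA, against 4.12, 4.32 and 4.84 CPM after control siRNA. Every ERI2 siRNA library was below every control siRNA library, and 50.6% of the control level remained. The log2 fold change was -0.98 (SE 0.168; edgeR's quasi-likelihood test, Benjamini-Hochberg adjusted p = 0.00582). EIF2AK2, which encodes PKR, a kinase that stops translation on binding double-stranded RNA, measured 105, 112 and 101 CPM against 125, 138 and 122 CPM. Its groups did not overlap either, with a log2 fold change of -0.27 (SE 0.0743; edgeR, adjusted p = 0.0372). It no longer passed without ERI2 siRNA replicate 2 (adjusted p = 0.0798 in edgeR), ERI2 siRNA replicate 3 (0.157), control siRNA replicate 2 (0.141) or control siRNA replicate 3 (0.0733), nor under total library size (0.0830).

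The other 2 RIG-I-like helicases gave no call. DDX58, which encodes RIG-I, a sensor of RNA with a 5′ triphosphate, measured 13.1, 13.5 and 14.3 CPM after ERI2 siRNA, against 11.8, 13.4 and 11.3 CPM after control siRNA. These groups overlapped, and the 95% interval of the log2 fold change ran from -0.06 to 0.39. DHX58, which encodes LGP2, a regulator of the other helicases, measured 0.760, 1.22 and 0.990 CPM against 1.11, 0.810 and 0.627 CPM. Its interval, from -0.46 to 0.88, covers changes of both signs. The log2 ratio of IFIH1 to DDX58 within a library was -2.60 ± 0.105 after ERI2 siRNA and -1.45 ± 0.213 after control siRNA (SD, n = 3 each; two-sided exact permutation test, p = 0.1, the smallest that 3 against 3 allows; 1 of 2 ratios computed). All 3 ERI2 siRNA ratios were below all 3 control siRNA ratios. The ratio uses the IFIH1 values already given, so it is not independent of the IFIH1 call.

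**Figure D3:**
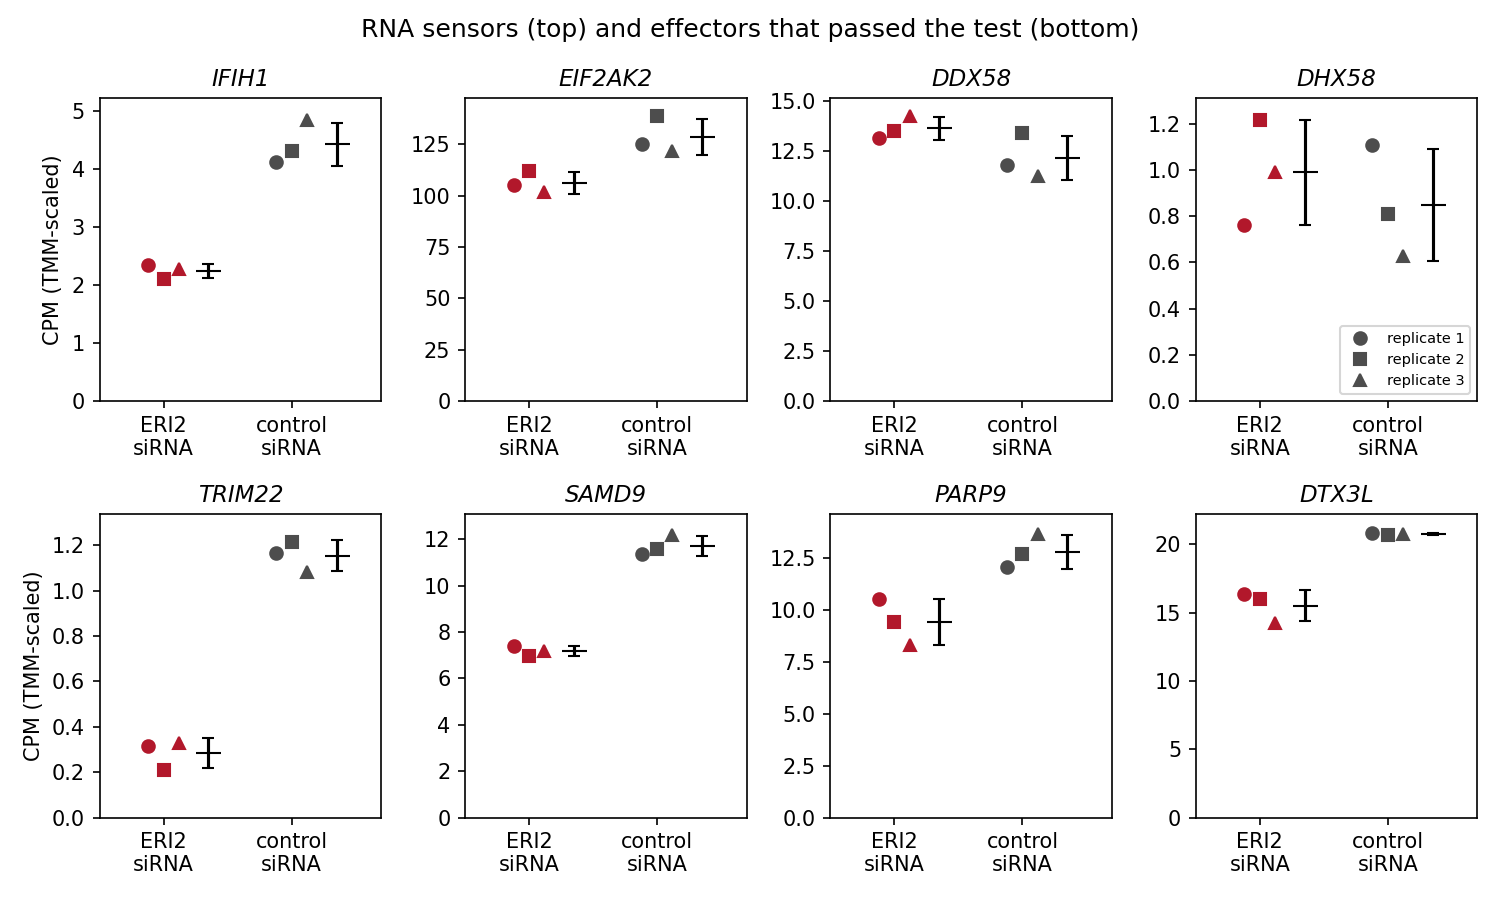
TMM-scaled CPM in each library, ERI2 siRNA (red) left of control siRNA (grey), for 4 RNA sensors (top) and the 4 effectors that passed the test (bottom). Markers give the replicate number and black bars the mean ± SD (n = 3). The groups separate for IFIH1, EIF2AK2 and all 4 effectors and overlap for DDX58 and DHX58.

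The signal genes had no call in the test of all 6 libraries. STAT2, part of the complex that carries the interferon signal to DNA, measured 66.2, 82.9 and 81.2 CPM after ERI2 siRNA, against 91.1, 73.3 and 77.5 CPM after control siRNA. The log2 fold change was -0.07, but 0.12 with replicates 2 and 3 alone, and neither passed. IRF9, its DNA-binding partner, measured 4.28, 4.87 and 5.81 CPM against 4.52, 2.30 and 3.90 CPM (log2 fold change 0.48; edgeR, adjusted p = 0.177). With replicates 2 and 3 alone IRF9 passed as higher, at 0.80 (edgeR, adjusted p = 0.0103). IRF7, a transcription factor for interferon genes, had the largest positive estimate of the 32, 0.86, from 1.74, 1.51 and 3.56 CPM against 1.25, 0.891 and 1.64 CPM. Those groups overlapped, and IRF7 did not pass (edgeR, adjusted p = 0.114) except with no count filter (adjusted p = 0.0179) and without ERI2 siRNA replicate 1. IRF1, an interferon-gamma response factor, had an interval from -0.15 to 0.37.

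Of the effectors, TRIM22, a ubiquitin ligase of the antiviral TRIM family, had the largest fold change. It measured 0.317, 0.208 and 0.330 CPM after ERI2 siRNA, or 10, 7 and 10 counts, against 1.17, 1.22 and 1.08 CPM after control siRNA, or 41, 45 and 31 counts. The log2 fold change was -2.01 (SE 0.336; edgeR, adjusted p = 0.00516), with 24.7% of the control level left. TRIM22 reached 1 CPM in 3 control siRNA libraries and in 0 ERI2 siRNA libraries, so it met the count filters through the control group. Its call under different filters is therefore not separate support. SAMD9, a cytoplasmic restriction factor for poxviruses, measured 7.38, 6.98 and 7.19 CPM against 11.4, 11.6 and 12.2 CPM. The log2 fold change was -0.71 (SE 0.109; edgeR, adjusted p = 0.00389), and the spread within either group was much smaller than the gap between them. Its neighbour and paralog SAMD9L was not tested, with 12 counts in all.

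PARP9 and DTX3L, an ADP-ribosyltransferase family member and its partner ubiquitin ligase, fell side by side. PARP9 measured 10.5, 9.41 and 8.31 CPM after ERI2 siRNA, against 12.1, 12.7 and 13.7 CPM after control siRNA (log2 fold change -0.44; edgeR, adjusted p = 0.0328). DTX3L measured 16.3, 16.0 and 14.2 CPM against 20.8, 20.7 and 20.8 CPM (log2 fold change -0.42; edgeR, adjusted p = 0.0145). Neither pair of groups overlapped. The log2 ratio of PARP9 to DTX3L was -0.73 ± 0.0774 after ERI2 siRNA and -0.70 ± 0.0918 after control siRNA (SD, n = 3 each). A two-sided exact permutation test gave p = 0.7, where 3 against 3 allows 0.1 at the smallest. This ratio uses the PARP9 and DTX3L values already given, so it is not independent of their calls. The spans of PARP9 and DTX3L overlap in the GRCh38 annotation, so without a known strand setting their counts may not be fully separate. Exons were not compared. DTX3L no longer passed without ERI2 siRNA replicate 2 (edgeR, adjusted p = 0.0558), ERI2 siRNA replicate 3 (0.0833) or control siRNA replicate 3 (0.0536). PARP9 no longer passed without ERI2 siRNA replicate 2 (edgeR, adjusted p = 0.111), ERI2 siRNA replicate 3 (0.154), control siRNA replicate 2 (0.0811) or control siRNA replicate 3 (0.118), nor under total library size (0.0561).

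Many of these genes carry the letters of the interferon response element near the start site. RefSeq promoter windows (build GRCh38.p14, 250 bases before to 50 after each start site) were present for 37 of the 46 genes, DDX58 under its current symbol RIGI; the 9 without one were DHX58, IRF7, IFIT2, MX2, OAS2, OASL, IFITM2, USP18 and TRIM22. The element's core was searched as GAAANNGAAA on both strands. It was found for 25 of the 37, or 67.6%, where 4.38% of all 27305 genes with windows had it. It stood in windows of 23 of 30 effectors but of 2 of 7 sensors and signal genes. All 5 genes with a window that passed the test held it, as did 15 of the 21 that did not pass and 5 of the 11 not tested. The gamma-activated site, searched as TTCNNNGAA, was in the windows of 11 of the 37, against 9.38% of all genes, and in none of the 5. The search describes letters, not binding.

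Windows of called genes are printed with those of DDX58 and ISG15, 2 genes with no call, 5′ to 3′ on the gene's strand from 250 bases before to 10 after the start site, with core matches in capitals:
IFIH1, chr2:162318675-162318934 (- strand): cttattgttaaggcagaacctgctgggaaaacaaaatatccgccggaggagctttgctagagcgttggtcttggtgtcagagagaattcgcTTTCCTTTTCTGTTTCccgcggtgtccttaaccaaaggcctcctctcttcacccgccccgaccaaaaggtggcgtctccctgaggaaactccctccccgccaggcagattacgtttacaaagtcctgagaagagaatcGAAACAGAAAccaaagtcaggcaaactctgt
EIF2AK2, chr2:37156971-37157230 (- strand): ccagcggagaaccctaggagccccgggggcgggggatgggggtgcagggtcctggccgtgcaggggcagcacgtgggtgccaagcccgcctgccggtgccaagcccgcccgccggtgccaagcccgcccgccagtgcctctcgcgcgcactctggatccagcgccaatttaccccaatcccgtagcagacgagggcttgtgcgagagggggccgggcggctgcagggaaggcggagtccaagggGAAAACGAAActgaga
SAMD9, chr7:93117970-93118229 (- strand): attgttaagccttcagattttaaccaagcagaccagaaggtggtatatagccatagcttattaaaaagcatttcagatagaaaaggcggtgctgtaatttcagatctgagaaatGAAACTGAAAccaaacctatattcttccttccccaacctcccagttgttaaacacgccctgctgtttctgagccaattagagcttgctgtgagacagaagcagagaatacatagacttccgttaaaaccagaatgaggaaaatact
DTX3L, chr3:122564088-122564347 (+ strand): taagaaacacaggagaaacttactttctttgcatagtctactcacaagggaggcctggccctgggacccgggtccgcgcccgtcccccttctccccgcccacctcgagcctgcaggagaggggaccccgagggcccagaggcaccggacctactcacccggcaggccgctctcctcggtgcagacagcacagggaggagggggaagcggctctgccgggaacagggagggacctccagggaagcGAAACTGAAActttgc
DDX58 (RIGI), chr9:32526187-32526446 (- strand): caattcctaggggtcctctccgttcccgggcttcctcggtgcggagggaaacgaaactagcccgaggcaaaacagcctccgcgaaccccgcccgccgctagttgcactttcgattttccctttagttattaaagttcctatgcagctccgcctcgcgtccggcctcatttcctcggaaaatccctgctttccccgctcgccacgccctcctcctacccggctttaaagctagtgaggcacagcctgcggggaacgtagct
ISG15, chr1:1013247-1013506 (+ strand): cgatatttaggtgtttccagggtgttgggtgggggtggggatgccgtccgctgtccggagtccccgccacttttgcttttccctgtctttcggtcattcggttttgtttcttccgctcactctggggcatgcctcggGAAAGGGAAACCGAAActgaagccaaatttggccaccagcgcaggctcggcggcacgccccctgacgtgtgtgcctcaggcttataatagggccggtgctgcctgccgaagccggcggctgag

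IFIH1 held 3 matches, of which 2 on the opposite strand overlap each other, and SAMD9 held 1, starting 136 bases before the start site. In EIF2AK2 and DTX3L the single match begins 6 bases before the start site and runs across it. The DTX3L match is also the single match of PARP9: their windows lie head to head, overlap by 137 bases and share the site at chr3:122564332-122564341. ISG15, which did not fall, held 2 overlapping matches, so the core was present in genes of either sign. TAP1 and PSMB9 also lie head to head, with windows that overlap by 13 bases.

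The remaining effectors leaned lower without a call. Of the 20 tested effectors that did not pass, 17 had a negative estimate, as did 49.5% of all tested genes. Every ERI2 siRNA library was below every control siRNA library for 7 of the 20, where 15.6% of all tested genes separated in this way. IFITM2, which blocks virus entry at membranes, measured 7.19, 4.96 and 4.69 CPM after ERI2 siRNA, against 7.22, 8.37 and 8.75 CPM after control siRNA (log2 fold change -0.53; edgeR, adjusted p = 0.0599). With replicates 2 and 3 alone it passed, at -0.83 (edgeR, adjusted p = 0.000560), while the replicate 1 libraries differed by -0.01. IFITM1 (-0.35) and IFITM3 (-0.51) had estimates of the same sign, but the 3 genes are related neighbours, and similar stretches may share reads. IFI6, a small membrane protein of antiviral function, measured 7.35, 5.64 and 6.14 CPM against 8.79, 7.83 and 9.20 CPM (log2 fold change -0.43; edgeR, adjusted p = 0.0626). IFI6 passed with replicates 2 and 3 alone too (edgeR, adjusted p = 0.0117). Both passed in DESeq2 (adjusted p of 0.0297 and 0.0451), with no filter and without ERI2 siRNA replicate 1, and IFITM2 also without control siRNA replicate 1.

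Abundant effectors had no call in the test of all 6 libraries. B2M, the light chain of class I molecules, measured 150, 127 and 126 CPM after ERI2 siRNA, against 153, 146 and 158 CPM after control siRNA, with an interval from -0.35 to -0.01 (edgeR, adjusted p = 0.171). HERC5, the ligase that attaches ISG15, measured 36.3, 34.0 and 31.4 CPM against 35.3, 39.8 and 36.1 CPM. IFIT5, an RNA-binding protein, measured 25.0, 20.2 and 19.4 CPM against 23.7, 26.9 and 27.7 CPM. TAP1, the peptide transporter, measured 22.2, 18.6 and 21.1 CPM against 24.8, 21.9 and 28.4 CPM. All 4 had overlapping groups, and the last 2 had log2 fold changes of -0.28 (edgeR, adjusted p of 0.114 and 0.113). With replicates 2 and 3 alone, B2M (-0.26), IFIT5 (-0.47) and TAP1 (-0.35) passed as lower (edgeR, adjusted p of 0.00828, 0.00161 and 0.0337). They also passed without ERI2 siRNA replicate 1 (edgeR, adjusted p of 0.0269, 0.0134 and 0.0454), whereas HERC5 passed in none of the 14 alternatives. The fit without ERI2 siRNA replicate 1 holds all libraries of replicates 2 and 3, so its passes are no separate support. The IFIT genes overlap the span of LIPA annotated in GRCh38, so their counts may not be fully separate from it. LIPA fell itself by 0.39 (edgeR, adjusted p = 0.00692). Gene spans and not exons were compared, and whether reads are shared was not tested. USP18, which removes ISG15, had an estimate of -0.17, HERC6 of -0.23, IFIT1 of -0.29 and IFI35 of -0.24. BST2 (-0.74), IFIT2 (-0.64), IFI44L (-0.60), IFIT3 (-0.58) and OAS3 (-0.56) rest on totals between 122 and 431 counts.

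The 3 effectors with positive estimates were ISG20, ISG15 and IFI27. ISG20, an RNA exonuclease, measured 2.85, 2.52 and 2.54 CPM after ERI2 siRNA, against 2.08, 1.65 and 1.43 CPM after control siRNA (log2 fold change 0.61; edgeR, adjusted p = 0.0816). ISG15, a ubiquitin-like modifier, measured 3.26, 3.59 and 5.08 CPM against 3.16, 2.03 and 2.86 CPM (log2 fold change 0.57; edgeR, adjusted p = 0.111). IFI27 measured 3.10, 3.62 and 3.63 CPM against 2.59, 2.54 and 2.51 CPM (log2 fold change 0.44; edgeR, adjusted p = 0.119). None of the 3 pairs of groups overlapped, as for 14.1% of all tested genes in this direction. ISG15 passed without ERI2 siRNA replicate 1 and ISG20 without control siRNA replicate 1, with adjusted p of 0.0433 and 0.0425 in edgeR. With replicates 2 and 3 alone both passed, ISG15 at 0.83 and ISG20 at 0.71 (edgeR, adjusted p of 0.00969 and 0.0370).

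The difference between groups was uneven between the replicate 1 libraries, which stood apart, and the rest. The labels do not say whether a shared number pairs libraries, so the values are differences between 1 library and 1 library, or between means of 2, with no test. Over the 32 tested genes the median difference was -0.16 log2 units in replicate 1 and -0.37 in replicates 2 and 3. For sensors and signal genes it changed sign, at -0.20 in replicate 1 and 0.20 in replicates 2 and 3, while for effectors it was -0.15 and -0.46. IFIH1 differed by -0.80 and -1.04, SAMD9 by -0.62 and -0.74, and TRIM22 by -1.70 and -1.90.

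**Figure D4:**
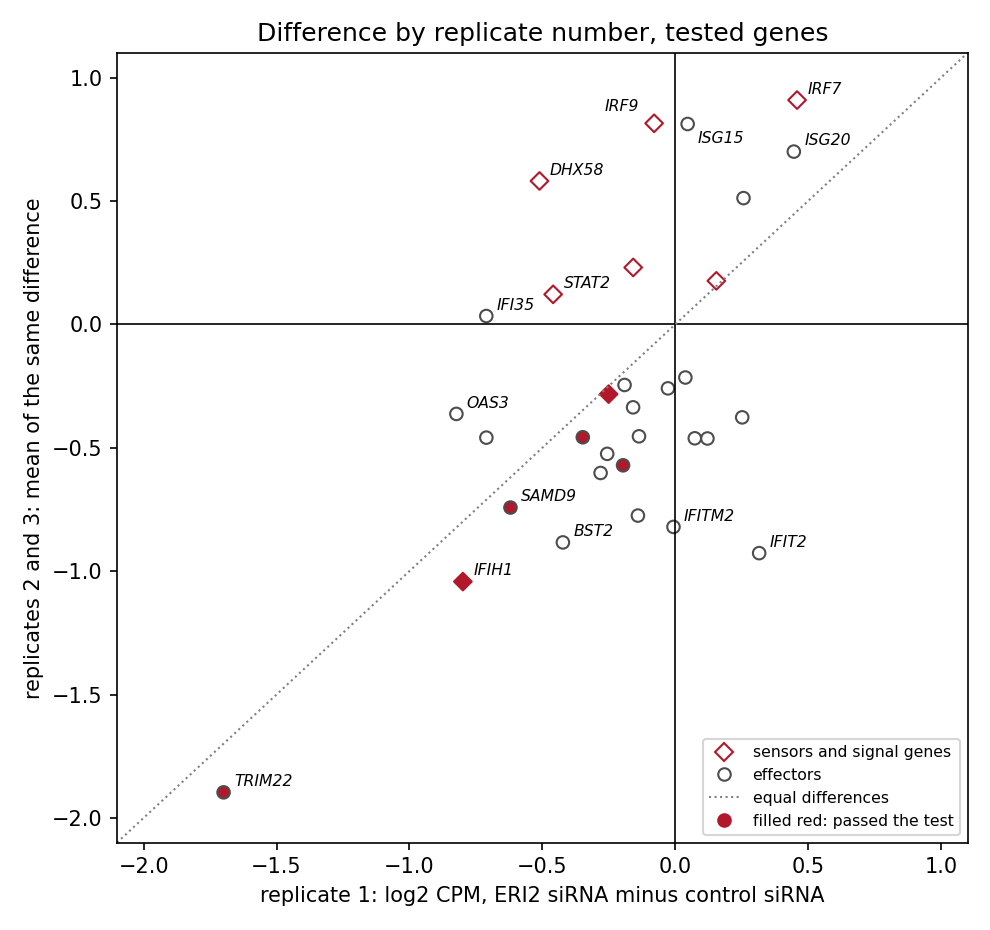
Log2 CPM of ERI2 siRNA minus control siRNA for the 32 tested genes, replicate 1 on the x axis and the mean of replicates 2 and 3 on the y axis, diamonds for sensors and signal genes and circles for effectors. TRIM22, IFIH1 and SAMD9 lie low on both axes, and STAT2, DHX58, IRF9 and IFIT2 are among those that change sign between them.

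Genes of the pathway around these were fitted in the same way. Of 80 further genes (ligands, receptors and kinases, upstream sensing, inhibitors, other induced genes and class I presentation), 61 were tested, 5 were lower and none higher, with a median of -0.12. The 5 are 8.20% of the 61, beside 4.25% of all tested genes. At an unadjusted p under 0.05 in edgeR 15 were lower (24.6%, beside 13.1% of all tested genes) and 2 higher (3.28%, beside 13.4%). At an adjusted p under 0.05 DESeq2 and limma-voom gave 0 higher, beside 5.48% and 4.18% of all tested genes. Of the ligand genes, IFNB1, IFNA1, IFNA2, IFNK, IFNG and IFNL1 had no count in any library, and IFNE averaged 0.794 CPM after ERI2 siRNA and 0.501 CPM after control siRNA without passing. No gene passed in edgeR among 11 tested receptors, kinases and ligands, 13 upstream genes and 5 inhibitors. At an unadjusted p under 0.05 in edgeR, 3, 2 and 0 of these were lower and 1, 0 and 1 higher. The shares of all tested genes at that threshold were 13.1% lower and 13.4% higher. The receptor genes IFNAR1 and IFNAR2 had estimates of -0.18 and -0.02, and the kinases JAK1 and TYK2 of -0.19 and 0.23. MAVS, the adaptor of the RIG-I-like helicases, had an estimate of 0.05, and IRF3 of 0.09 (edgeR, adjusted p from 0.110 to 0.908 for these 6). MB21D1, the DNA sensor cGAS, was not tested, at 0.204 CPM after ERI2 siRNA and 0.136 CPM after control siRNA.

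The 5 that fell were 3 other induced genes and 2 of class I presentation. LGALS3BP, a secreted glycoprotein, measured 14.0, 14.6 and 17.0 CPM after ERI2 siRNA, against 26.1, 22.1 and 26.5 CPM after control siRNA, a log2 fold change of -0.71 (edgeR, adjusted p = 0.00294). UBE2L6, the conjugating enzyme for ISG15 (-0.57), and TDRD7, an inhibitor of virus-induced autophagy (-0.26), fell too (edgeR, adjusted p of 0.0278 and 0.0478). TAPBP, tapasin, which loads peptides on class I molecules (-0.46), and ERAP2, which trims those peptides (-0.52), had adjusted p of 0.0158 and 0.0282 in edgeR. HLA-C had an estimate of 0.08. LGALS3BP passed under all 14 alternatives. When 1 library was left out, TAPBP lost its call in 2 of 6 fits, UBE2L6 in 4, ERAP2 in 4 and TDRD7 in 5. TDRD7 also lost it under RLE factors (edgeR, adjusted p = 0.0503), total library size (0.110) and no filter (0.0521), and ERAP2 under total library size (0.0663). Without control siRNA replicate 3 or ERI2 siRNA replicate 2, only LGALS3BP of the 80 was lower.

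Some genes listed as markers were lower too, where 4.25% of all tested genes were. Bulk counts do not show which cells the RNA came from, so a listed gene need not mark other cells here. Of 10 genes listed for keratinocytes or cervical carcinoma lines, 6 were tested and 5 were lower. The list summed to between 80.3 and 87.5 CPM after ERI2 siRNA, against 106 to 123 CPM after control siRNA. KRT5 and S100A6 were at 0 in all libraries, and KRT14 and KRT17 were not tested, with 4 and 11 counts in all. KRT18 alone averaged 49.1 CPM after ERI2 siRNA and 59.2 CPM after control siRNA, much of these sums. Of 9 fibroblast markers, 2 of 5 tested were lower, with sums of 62.1 to 66.1 CPM against 75.1 to 84.8 CPM and COL1A2 and THY1 at 0. FBN1 alone averaged 48.5 CPM after ERI2 siRNA and 61.9 CPM after control siRNA, most of these sums. COL1A1 and LUM went the other way, with log2 fold changes of 0.31 and 0.25 that did not pass. None of 3 tested blood cell markers passed (edgeR; 0 at an unadjusted p under 0.05, and PTPRC averaged 0.0110 CPM after ERI2 siRNA and 0.0116 CPM after control siRNA), with sums of 3.50 to 4.12 CPM against 3.16 to 4.74 CPM and CD3E and HBB at 0. All 6 listed genes that HEK293 lines express were tested, and NEFL and INA were lower. Their sums were lower too, at 817 to 1026 CPM after ERI2 siRNA against 1028 to 1162 CPM after control siRNA. VIM alone averaged 736 CPM after ERI2 siRNA and 924 CPM after control siRNA, most of these sums. VIM (-0.33) and NEFM (-0.44) had groups that did not overlap but did not pass. LIN28B measured 113 CPM after ERI2 siRNA and 117 CPM after control siRNA. PAX2 went the other way, at 0.44, without passing. The part of these markers in the differences of the interferon genes was not tested.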

How the data were processed

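Long RNA of HEK293T cells was sequenced in 3 ERI2 siRNA and 3 control siRNA libraries. The submitters' processing notes name build hg19, HTSeq 0.6.1p1, TopHat2 2.0.10 and CASAVA 1.8.2, with no role stated. The annotation and strand setting were not given in the sources used here. Raw read counts per gene were deposited by the authors, and each column matched a sample by title. The miRNA counts were not used here, and some genes of the pathway are not reported here.

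Counts were filtered with filterByExpr (18843 genes kept), TMM-scaled and fitted in R 4.3.3 by the robust quasi-likelihood test of edgeR 4.0.16, at a Benjamini-Hochberg adjusted p under 0.05 over all tested genes. Log2 CPM values for replicate differences used a prior count of 2. Of the members, values per library are given for those that passed, 4 RNA sensors, the 6 most abundant and the 6 with the smallest p that did not pass; IRF7, IRF9, IFI27, MX1 and PSMB9 were added after their values were seen. Members and lists were chosen with earlier results of these data known. The fit was tested on simulated data. Alternatives were DESeq2 1.42.0, limma-voom (limma 3.58.1), RLE factors, total library size, other filters, a replicate block, each library left out in turn, and replicates 2 and 3 alone. Promoter windows and gene neighbours came from RefSeq tables of GRCh38.p14, a build other than that of the counts. Depth was from 29143596 to 38306631 counts per library. Genes are compared between groups and not with each other, since CPM is not scaled by length.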

Additional observations from a re-analysis of the deposited data

How the results depend on the processing

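ERI2 kept its direction and call in all alternatives, with log2 fold changes from -0.73 to -0.64. IFIH1, SAMD9 and TRIM22 passed in all 14, but under the replicate block only narrowly (edgeR, adjusted p of 0.0479, 0.0391 and 0.0406). The alternatives reuse the same libraries, and TRIM22 met the count filters through the control group, so these passes are not separate support. Lower genes among the 46 numbered 6 in the main test, 8 with DESeq2 and with no filter, 4 under total library size, 3 with the replicate block, 13 with replicates 2 and 3 alone and from 3 to 12 when 1 library was left out. Of all tested genes, 3.51% were lower with no filter, 2.46% under total library size and 0.52% with the block. Higher genes numbered 0 in the main test, 1 with no filter, 3 with replicates 2 and 3 alone and from 0 to 2 when 1 library was left out. Lower sensors and signal genes numbered 2, but 1 under total library size and with the replicate block and from 1 to 2 when 1 library was left out. Lower effectors numbered 4, but 2 with the block, 11 with replicates 2 and 3 alone and from 2 to 10 when 1 library was left out. Among the 80 other pathway genes 5 were lower, but 3 under total library size, 1 with the block, 15 with replicates 2 and 3 alone and from 1 to 9 when 1 library was left out. Higher ones numbered 0, but 1 under total library size, 3 with replicates 2 and 3 alone and from 0 to 1 when 1 library was left out. The cause of these moves was not tested. The labels do not say whether a shared replicate number pairs libraries. Same-numbered deviations correlated at -0.30, -0.08 and -0.10 over 18843 genes. No ERI2 siRNA library correlated best with the control siRNA library of its own number. Both replicate 1 libraries lay nearest the middle of the first principal component, which can itself make their correlation negative. These correlations therefore cannot decide whether libraries were paired. The median log2 fold change of all genes was 0.06 under total library size, against 0.003 in the main test. EIF2AK2, PARP9 and DTX3L were not called under the block (edgeR, adjusted p of 0.122, 0.122 and 0.0778).

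Among the genes followed through all alternatives, those whose estimates changed sign, never past the test, were STAT2 (-0.138 to 0.0232 when 1 library was left out, 0.118 with replicates 2 and 3 alone), MAVS (-0.0108 to 0.0919 when 1 library was left out) and IFNAR2 (-0.0934 to 0.0645 when 1 library was left out, 0.0323 under total library size, 0.0472 with replicates 2 and 3 alone). IFI35, followed through fewer, was at 0.0335 with replicates 2 and 3 alone, against -0.24 in the main test. Depth leaves 14 of the 46 genes unjudged.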
